A study of Mus musculus with 20 samples.

Results

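Interferon response genes are the genes that cells switch on when interferon reaches them or when they sense viral nucleic acid. The set described here holds 39 genes, taken by name, out of 34741 gene names on the array. A gene counted as measured where at least 4 of the 5 arrays of a group called its probe well above background, which kept 21998 genes in all. 38 of the 39 were measured, and their brightest probes were well above background on all 20 arrays. Oas3, an oligoadenylate synthetase, was not kept, because its probe was well above background on only 9 arrays (3 null E2, 3 null placebo, 2 wild-type E2 and 1 wild-type placebo). Under the settings used throughout, no gene of the set passed an adjusted p of 0.05 in any comparison. Between genotypes, 1 or 2 genes passed under some other settings of the fit on all 20 animals, and when certain animals were left out. The set as a whole lay further from 0 between genotypes than between treatments. Averaged over treatments, 35 of 38 genes stood higher in null than in wild-type livers, against 51.3% of all genes. The median log2 difference was 0.29, against 0.00 over all genes. The set was chosen with earlier results of these data known, and its genes varied together within groups, so this is a description and not a test. Within slides 1 and 2, which held all 4 groups, the medians were 0.40 and -0.07, with 32 and 12 of 38 genes above 0. Each of these slides held 3 null and 3 wild-type animals, with only 1 wild-type placebo animal on each.

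Livers came from 20 female mice, 5 in each of 4 groups, with 1 array per animal. The groups were ERa-/- mice (null, without estrogen receptor alpha) given estradiol (E2), ERa-/- mice given placebo, ERa+/+ mice (wild type) given E2, and ERa+/+ mice given placebo. All of them had lost their ovaries at the age of 4 weeks, received their gavage at 9 weeks (E2 at 1 mg/kg, or castor oil with 5% ethanol as placebo) and were killed 4 hours later under anaesthesia with xylazine (10 mg/kg) plus ketamine (100 mg/kg). Wild-type mice were bred from the parents of the null line, and how the receptor gene was disrupted is not given in the labels.

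Levels are log2 intensities relative to the 75th percentile of each array, so they compare animals at 1 probe and not 1 gene with another. On this scale the probe for Esr1, the receptor gene itself, ranged from -2.16 to -0.92 in null livers and from -0.04 to 1.02 in wild-type livers, with no overlap (adjusted p = 1.88e-05 under E2 and 0.000509 under placebo). Between 51.6% and 70.0% of an array's spots were well above background; the lowest share was on the array of null placebo animal 1 and the highest on that of wild-type E2 animal 1. In whole liver, fewer cells of a type and less RNA per cell cannot be told apart.

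As background, type I interferons bind a receptor on almost every cell, whose kinases activate a complex that holds STAT2 and IRF9 and binds the interferon-stimulated response element (ISRE) in promoters. Interferon gamma, made by T and natural killer cells, acts through the gamma-activated site (GAS), and drives the guanylate-binding proteins and antigen presentation above all. In liver this response is known from viral hepatitis and from the resident macrophages and hepatocytes that answer to it.

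RefSeq promoter windows (GRCm38.p6, 250 bases before to 50 bases after the annotated start) were matched by symbol for 29 of the 39 genes. The ISRE core, searched on both strands as GAAA, any 2 bases and GAAA, lay in the windows of 14 of these 29 genes, against 3.99% of all 27025 genes with a window: Bst2, Cxcl10, Ddx58, Gbp2, Gbp3, Ifih1, Ifit1, Ifit3, Igtp, Isg15, Oas1a, Oas3, Rsad2 and Stat2. The GAS core, TTCNNNGAA, lay in 7 of 29 (Bst2, Ifi35, Ifit2, Igtp, Irf1, Oas1a and Psmb8), against 9.55% of all genes, and in Bst2 it overlaps an ISRE match. The estrogen response element, searched as GGTCA, any 3 bases and TGACC, lay in none of the 29, against 0.074% of all genes. These matches are letters in a window and not measured binding. The windows below belong to the genes that recur most often in the results and hold a match; the capitals mark ISRE letters, on either strand, except in Irf1, where they mark the GAS letters.
Ifih1 (chr2:62646206-62646505, minus strand): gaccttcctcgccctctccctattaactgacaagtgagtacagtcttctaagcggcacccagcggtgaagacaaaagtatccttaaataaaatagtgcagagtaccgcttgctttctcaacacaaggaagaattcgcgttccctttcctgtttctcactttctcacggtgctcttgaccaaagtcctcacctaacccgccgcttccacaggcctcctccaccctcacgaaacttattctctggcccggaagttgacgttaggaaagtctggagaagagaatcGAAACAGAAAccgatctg
Stat2 (chr10:128270248-128270547, plus strand): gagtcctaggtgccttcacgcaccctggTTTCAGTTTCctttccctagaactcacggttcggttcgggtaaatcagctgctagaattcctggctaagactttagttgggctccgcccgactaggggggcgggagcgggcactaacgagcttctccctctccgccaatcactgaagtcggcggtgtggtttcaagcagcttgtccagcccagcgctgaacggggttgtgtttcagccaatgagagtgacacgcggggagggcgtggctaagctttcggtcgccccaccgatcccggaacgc
Rsad2 (chr12:26456403-26456702, minus strand): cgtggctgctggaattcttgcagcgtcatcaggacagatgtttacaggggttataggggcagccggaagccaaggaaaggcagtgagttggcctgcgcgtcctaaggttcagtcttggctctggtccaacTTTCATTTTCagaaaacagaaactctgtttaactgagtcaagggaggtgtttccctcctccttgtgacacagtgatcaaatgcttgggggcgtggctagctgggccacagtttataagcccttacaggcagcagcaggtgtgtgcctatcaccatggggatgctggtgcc
Ifit3 (chr19:34583279-34583578, plus strand): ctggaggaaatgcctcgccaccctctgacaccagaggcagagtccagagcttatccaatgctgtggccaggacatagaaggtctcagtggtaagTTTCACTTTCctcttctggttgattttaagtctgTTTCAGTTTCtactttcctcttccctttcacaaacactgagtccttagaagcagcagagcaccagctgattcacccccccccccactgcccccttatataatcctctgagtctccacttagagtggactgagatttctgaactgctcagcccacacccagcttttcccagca
Ifit1 (chr19:34640639-34640938, plus strand): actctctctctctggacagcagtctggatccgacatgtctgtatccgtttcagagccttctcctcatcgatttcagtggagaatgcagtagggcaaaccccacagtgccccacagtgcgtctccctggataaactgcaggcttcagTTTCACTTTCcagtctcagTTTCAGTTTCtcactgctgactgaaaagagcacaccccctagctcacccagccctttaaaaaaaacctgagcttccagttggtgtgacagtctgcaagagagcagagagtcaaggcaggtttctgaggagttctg
Irf1 (chr11:53769764-53770063, plus strand): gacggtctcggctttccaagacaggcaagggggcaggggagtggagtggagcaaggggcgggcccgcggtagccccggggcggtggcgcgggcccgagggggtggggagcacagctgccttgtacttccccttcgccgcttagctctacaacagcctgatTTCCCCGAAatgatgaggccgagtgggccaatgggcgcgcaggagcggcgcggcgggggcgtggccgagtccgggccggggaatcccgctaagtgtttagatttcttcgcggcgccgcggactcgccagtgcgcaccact
Ifit1 and Ifit3 each carried a pair of ISRE matches on the strand opposite to the gene, while the match in Ifih1 lay downstream of its start. The windows of Irf7, Oasl1 and Xaf1, which also recur below, held none of these letters.

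**Figure D1:**
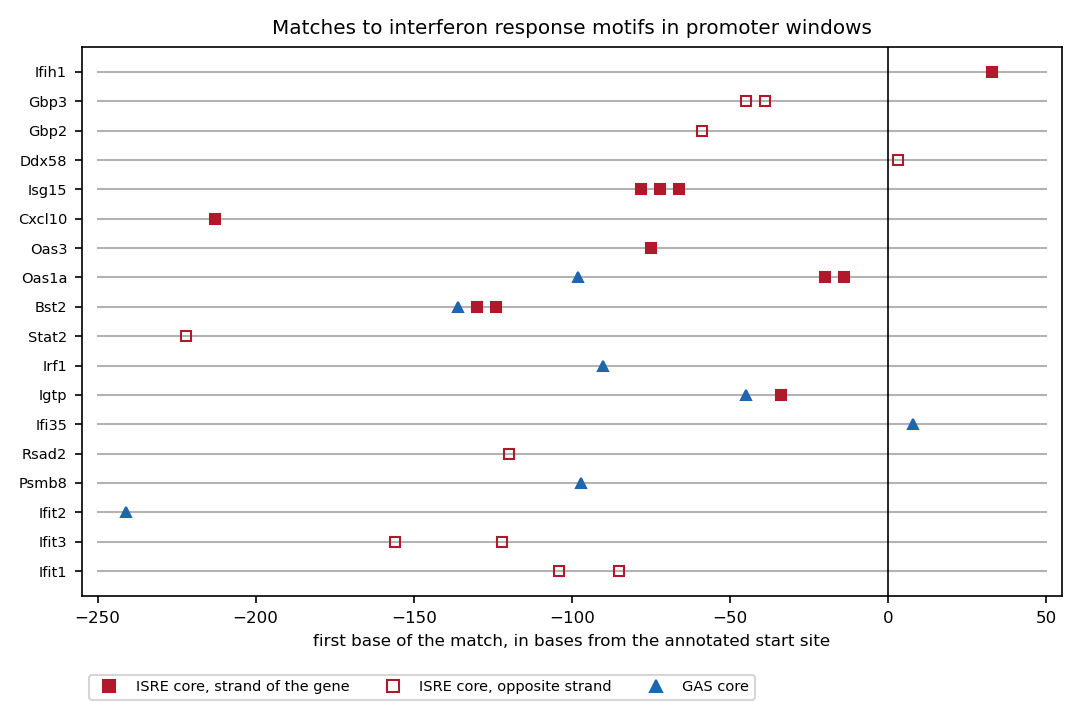
Position of each match to the ISRE core (squares) and the GAS core (triangles) in the promoter windows that hold one, in bases from the annotated start site (vertical line). Most ISRE matches lie upstream of the start, and the matches in Ifih1 and Ddx58 lie downstream of it.

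The shape of the data is best seen animal by animal. For each animal, the 38 deviations from the genes' own means over the 20 animals were summarised by their median. This median ran from -0.01 to 0.41 in null E2 livers, from -0.24 to 0.48 in null placebo livers, from -0.30 to 0.14 in wild-type E2 livers and from -0.60 to -0.03 in wild-type placebo livers. The groups overlapped, with means of 0.17, 0.10, -0.06 and -0.22 in that order and SDs from 0.16 to 0.29. Null placebo animal 1 was the highest of all 20 animals for 19 of the 38 genes, and wild-type placebo animal 3 was the lowest for 22 of them. These 2 counts were not made over all genes. The median deviation over all genes was 0.07 in null placebo animal 1, against 0.48 for the set. In wild-type placebo animal 3 it was 0.00, against -0.60 for the set. The group mean was lowest in wild-type placebo livers for 28 of 38 genes, against 28.3% of all genes. Both null groups averaged above both wild-type groups for 30 of 38 genes, against 20.8% of all genes.

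**Figure D2:**
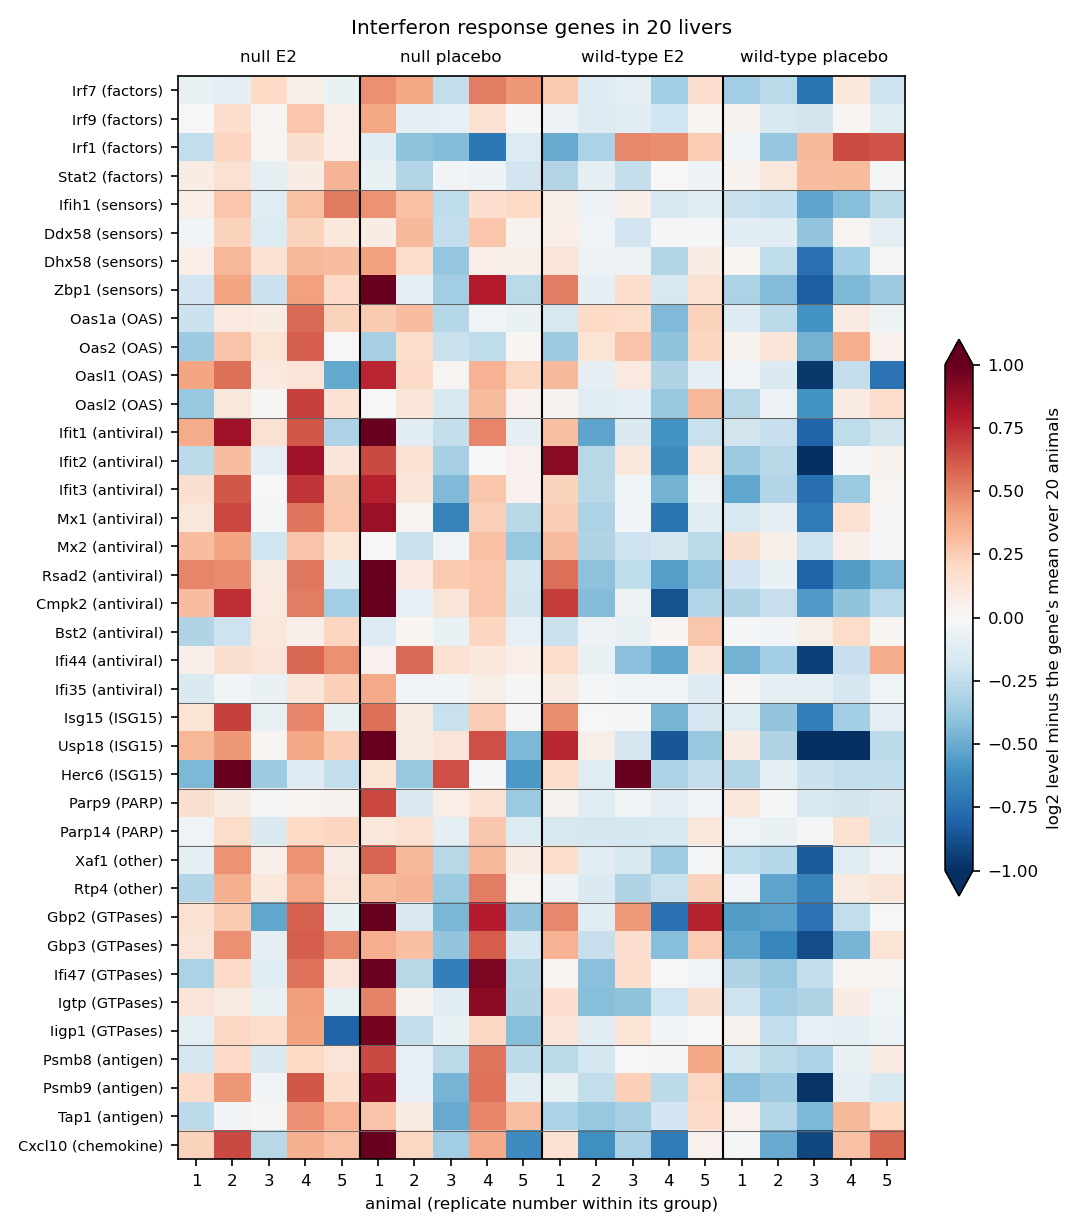
Heat map of 38 interferon response genes (rows, by role) in 20 livers (columns, by group), coloured by the log2 level minus the gene's mean over all animals. Null placebo animal 1 is red and wild-type placebo animal 3 is blue down most of the map, while Irf1, Stat2, Bst2 and Herc6 follow patterns of their own.

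Within groups the genes varied together from animal to animal. Over the 20 animals' deviations from their group means, the median correlation between 2 genes of the set was 0.49 over 703 pairs, 340 of them over 0.5, whereas the median correlation of a member with all genes was 0.01. The points share arrays and scaling, so this is a description. Zbp1 (median correlation with the other genes of the set 0.70), Mx1 (0.66), Xaf1 (0.65), Ifit3 (0.64) and Gbp3 (0.64) were the most tightly tied to the rest. Stat2 (-0.13), Bst2 (0.02), Irf1 (0.04), Herc6 (0.15) and Oas2 (0.22) were the least tied.

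The first question is how these genes differ between null and wild-type livers of the same treatment. Under placebo, 0 of 38 genes passed an adjusted p of 0.05, where 0.0727% of all genes did. At an unadjusted p under 0.05, 15 were higher in null livers, where 6.37% of all genes were, and 2 were lower (Irf1 and Stat2), where 3.75% were. The median difference was 0.32 and 33 of 38 were above 0, against 53.4% of all genes. Under E2, 0 of 38 passed, where 0.464% of all genes did, and 7 were higher at an unadjusted p under 0.05 (Irf9, Stat2, Ifit1, Ifit3, Mx2, Rsad2 and Ifi44), where 5.41% of all genes were. The median difference under E2 was 0.21 and 33 of 38 were above 0, against 49.6% of all genes. Averaged over treatments, 0 passed, where 0.696% of all genes did, and 18 were higher at an unadjusted p under 0.05, where 8.01% of all genes were. The averaged comparison draws on the same animals as the other 2.

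The counts at an unadjusted p under 0.05 moved with single animals, while the medians stayed above 0. Under placebo the 15 genes became 9 without null placebo animal 1, and also 9 without wild-type placebo animal 3. Among all genes, those with an unadjusted p under 0.05 in either direction went from 2227 to 2013 and 1483 in these fits. The 15 genes rose to 19 without null placebo animal 3, where the count over all genes was 2236. On leaving out 1 animal they ranged from 9 to 19. The median of the set stayed between 0.22 and 0.44 whichever animal was left out. Without both of these animals, left out together after seeing the data, the 15 genes became 3 and the median 0.13. The count over all genes was then 1320. Under E2 the 7 genes became 1 without null E2 animal 2 or 4 or without wild-type E2 animal 2 or 4. They became 3 without wild-type E2 animal 3. In these fits the count over all genes lay between 1734 and 2255, against 2117 with all animals. The 7 genes rose to 10 without null E2 animal 3, where the count over all genes was 2355. On leaving out 1 animal they ranged from 1 to 10. The median of the set under E2 stayed between 0.16 and 0.27. For the average, the 18 genes ranged from 15 to 23 and the median from 0.23 to 0.34 on leaving out 1 animal. They became 13 with a median of 0.17 without null placebo animal 1 and wild-type placebo animal 3. The count over all genes was 2834 with all animals, 2280 to 3062 on leaving out 1 animal, and 2432 without those 2 animals.

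The animals' numbers in the labels and the slides were also uneven over the groups. Numbers below 750 belonged to 2 of the 5 null E2, 3 of the 5 null placebo, 2 of the 5 wild-type E2 and 0 of the 5 wild-type placebo animals, and the labels do not say what the numbering stands for. With a block for these animals, the 15 genes under placebo became 8 (median 0.36). With only animals numbered 750 or above they became 9 (median 0.37), and the 7 under E2 became 4 (median 0.26). Over all genes the count at an unadjusted p under 0.05 was 1811, 1851 and 1418 in the same order. Arrays lay on 4 slides, and only slides 1 and 2 held all groups. With slide as a block, the 7 genes under E2 became 3, and the count over all genes 1833. Without slide 2, left out after seeing the data, the counts were 21 under placebo and 24 for the average, with medians of 0.50 and 0.43. Over all genes these counts were 1816 and 2906. Within slide 1 the median difference averaged over treatments was 0.40, and within slide 2 it was -0.07, with 12 of 38 genes above 0. Under placebo the within-slide medians were 0.61, -0.18 and 0.43 on slides 1, 2 and 3, and under E2 they were 0.17, 0.04 and 0.20 on slides 1, 2 and 4. Few animals stood behind these medians. Under placebo, slide 1 set 2 null animals against 1 wild-type animal, slide 2 set 1 against 1, and slide 3 set 2 against 2. Under E2, slide 1 set 1 null animal against 2 wild-type animals, slide 2 set 2 against 2, and slide 4 set 1 against 1.

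**Figure D3:**
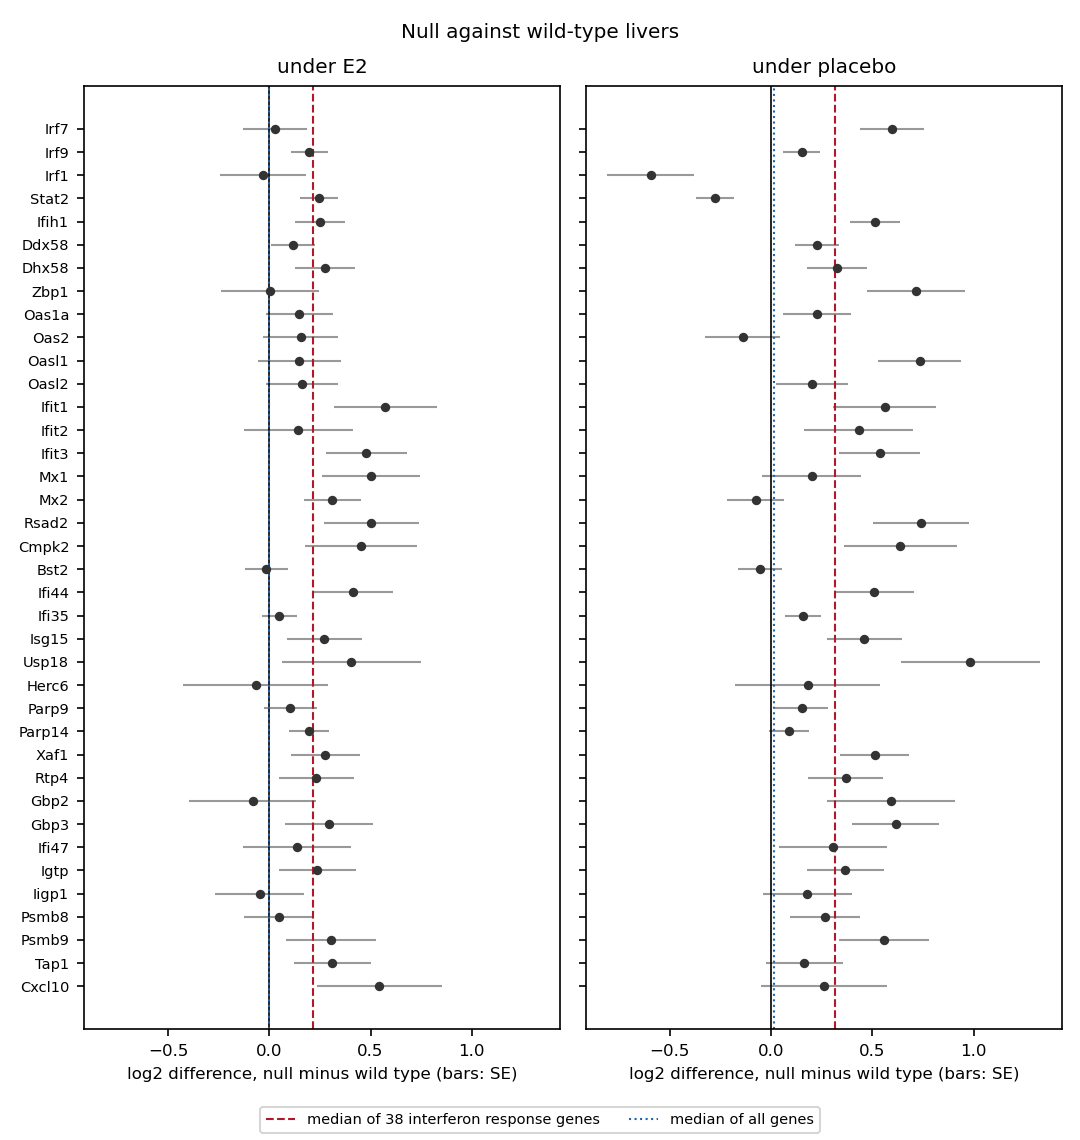
Log2 difference of null minus wild-type livers for each gene (points, with SE) under E2 and under placebo, with the medians of the 38 genes (dashed, 0.21 under E2 and 0.32 under placebo) and of all genes (dotted). Most points lie right of 0 in both panels, and Irf1 and Stat2 lie left of it under placebo.

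The second question is what E2 does after 4 hours. In null livers, 0 of 38 genes passed, where 0.00455% of all genes did, 20 of 38 were above 0, where 46.8% of all genes were, and only Stat2 was higher at an unadjusted p under 0.05, where 2.82% of all genes were; none was lower. The median there was 0.03, and it took the other sign without null E2 animal 2 or 4 or null placebo animal 3 or 5 (lowest -0.03) and was 0.15 without null placebo animal 1. In wild-type livers, 0 passed, where 0.318% of all genes did, and 28 of 38 were above 0, where 50.6% were. The median was 0.13, 0.09 without wild-type placebo animal 3, and -0.094 with arrays scaled on their median, which put the median of all genes at -0.22. At an unadjusted p under 0.05, Ifih1, Zbp1 and Gbp3 were higher there, where 4.79% of all genes were, and Stat2 was lower, where 3.49% were. The 3 higher genes became 0 without wild-type E2 animal 1 or wild-type placebo animal 3, 1 without wild-type E2 animal 3 and 6 without wild-type E2 animal 4. Among all genes, 1821 had an unadjusted p under 0.05 in either direction with all animals. In these fits the count was 1347, 1152, 1492 and 2626, in that order. Tested as a difference between the genotypes, the E2 effect called 0 of 38, where 0.164% of all genes were called. At an unadjusted p under 0.05, Stat2 lay above 0 in that test, where 3.15% of all genes did, and Irf7 below 0, where 4.25% did. The difference was above 0 for 11 of 38 genes, against 46.6% of all genes. Its median was -0.12, and leaving out 1 animal put it between -0.20 (without null placebo animal 3) and -0.03 (without null placebo animal 1). It moved by over 1.5 times also without null E2 animal 1 or 4, null placebo animal 4, wild-type E2 animal 1 or wild-type placebo animal 3 or 5. With only animals numbered 750 or above it was -0.0059, with 19 of 38 genes above 0, and without null placebo animal 1 and wild-type placebo animal 3 it turned to 0.04.

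**Figure D4:**
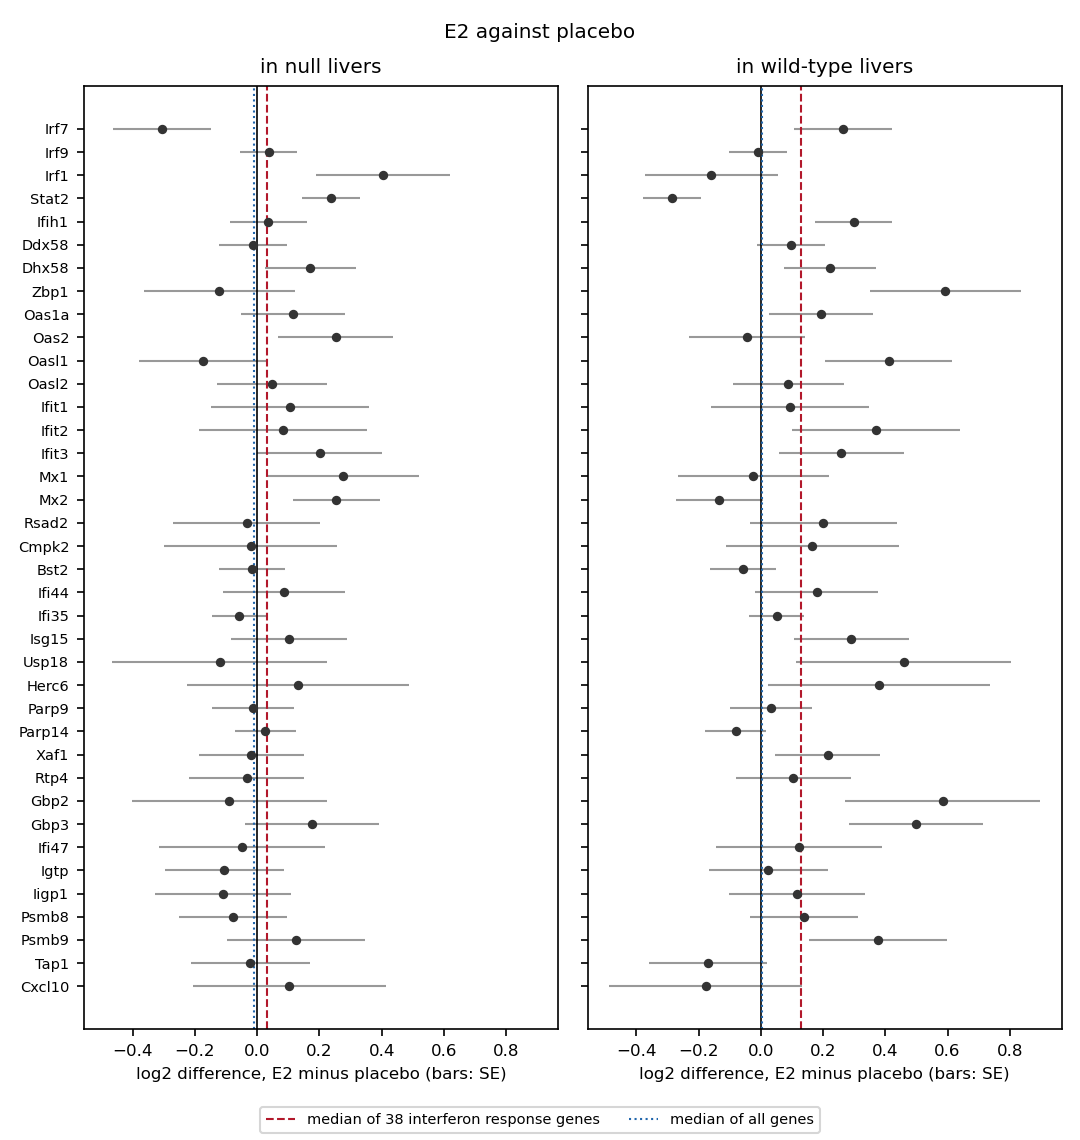
Log2 difference of E2 minus placebo livers for each gene (points, with SE) in null and in wild-type livers, with the medians of the 38 genes (dashed, 0.03 in null and 0.13 in wild-type livers) and of all genes (dotted). Stat2 lies right of 0 in null livers and left of it in wild-type livers.

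Values per animal are given below in the order of animals 1 to 5 of a group. Of the 4 transcription factors, Stat2, a subunit of the ISRE-binding complex (probe at mm9 chr10:127729834-127729893), showed a crossed pattern. In null livers it stood at 3.79, 3.87, 3.63, 3.79 and 4.06 under E2, against 3.65, 3.43, 3.69, 3.67 and 3.52 under placebo. In wild-type livers it stood at 3.42, 3.63, 3.48, 3.72 and 3.67 under E2, against 3.75, 3.83, 4.03, 4.03 and 3.70 under placebo. The null placebo and wild-type placebo animals did not overlap, with the null animals lower, as held for 0.65% of all genes in that direction, and the wild-type treatments overlapped only where E2 animal 4 (3.72) passed placebo animal 5 (3.70). The E2 difference was 0.24 ± 0.09 (SE) in null livers (adjusted p = 0.817) and -0.29 ± 0.09 in wild-type livers (adjusted p = 0.398). The difference between these effects was 0.52 ± 0.13, with a 95% interval from 0.24 to 0.80, an unadjusted p of 0.000964 and an adjusted p of 0.272. Averaged over treatments, null and wild-type livers differed by -0.02 ± 0.07, with a 95% interval from -0.16 to 0.12.

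Irf1, a factor that interferon gamma induces through a GAS, also ran against the set. Null livers had 3.44, 3.90, 3.71, 3.84 and 3.75 under E2 and 3.58, 3.28, 3.25, 2.96 and 3.55 under placebo. Wild-type livers had 3.18, 3.37, 4.16, 4.15 and 3.94 under E2 and 3.64, 3.30, 4.01, 4.34 and 4.31 under placebo. The null placebo values sat low, and 3 of the 5 lay below every wild-type placebo animal. Null minus wild type was -0.60 ± 0.21 under placebo (adjusted p = 0.338) and -0.03 ± 0.21 under E2 (adjusted p = 0.976).

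Irf7, which amplifies type I interferon production, had its highest levels in null placebo livers. It measured 0.69, 0.67, 0.96, 0.83 and 0.70 in null E2 livers and 1.23, 1.15, 0.52, 1.28 and 1.20 in null placebo livers. In wild-type livers it measured 1.03, 0.64, 0.67, 0.43 and 0.94 under E2 and 0.41, 0.50, 0.04, 0.87 and 0.56 under placebo. Under placebo 4 of the 5 null animals lay above every wild-type animal, and null animal 3 lay among them. The difference was 0.60 ± 0.16 under placebo (fold 1.51, adjusted p = 0.199) and 0.03 ± 0.16 under E2 (adjusted p = 0.968). Without null placebo animal 3, the lowest of its group, the placebo difference was 0.74 and passed (adjusted p = 0.0390). Over 36 other fits, which changed a setting or left out animals, it ran from 0.45 to 0.84, with adjusted p from 0.0390 to 0.694. The E2 effect in null minus that in wild-type livers was -0.57 ± 0.22 (adjusted p = 0.615). Irf9, the DNA-binding partner of the STATs, averaged 3.97 ± 0.12 and 3.94 ± 0.20 in null livers under E2 and placebo (SD, n = 5 each), against 3.78 ± 0.09 and 3.79 ± 0.10 in wild-type livers, a difference under E2 of 0.20 ± 0.09 (adjusted p = 0.517).

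Among the sensors, Ifih1, which encodes the double-stranded RNA sensor MDA5 (probe at mm9 chr2:62435507-62435566), came nearest to a call. Its levels were 2.59, 2.79, 2.40, 2.81 and 3.04 in null E2 livers and 2.96, 2.81, 2.26, 2.69 and 2.72 in null placebo livers. They were 2.57, 2.46, 2.57, 2.36 and 2.41 in wild-type E2 livers and 2.30, 2.27, 1.99, 2.09 and 2.25 in wild-type placebo livers. Wild-type E2 animals lay wholly above wild-type placebo animals, as held for 0.968% of all genes in that direction, and 4 of the 5 null placebo animals lay above every wild-type placebo animal. The null minus wild-type difference averaged over treatments was 0.38 ± 0.09, with a 95% interval from 0.20 to 0.57, a fold of 1.30 and an adjusted p of 0.0514. Under placebo it was 0.51 ± 0.12 (adjusted p = 0.158) and under E2 0.25 ± 0.12 (adjusted p = 0.541). With all animals, the average passed under a trended and robust prior (adjusted p = 0.0300) and with probes required on every array of a group (0.0466). It passed without null E2 animal 3 (adjusted p = 0.0235), null placebo animal 3 (0.0115) or wild-type placebo animal 5 (0.0486). The placebo difference passed without null placebo animal 3 (0.0345). In most other fits neither passed: the adjusted p reached 0.201 over 35 other fits of the average and 0.718 over 36 under placebo. Within slides 1 and 2 the averaged difference was 0.40 and 0.16.

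Zbp1, a sensor of Z-form nucleic acid that can trigger necroptosis, spread widely in null placebo livers. It stood at 0.92, 1.51, 0.90, 1.53 and 1.31 in null E2 livers and 2.24, 1.03, 0.76, 1.91 and 0.85 in null placebo livers. Wild-type E2 livers had 1.63, 1.02, 1.29, 0.95 and 1.27, against 0.80, 0.68, 0.29, 0.67 and 0.75 in wild-type placebo livers. The 2 null groups overlapped (E2 difference -0.12 ± 0.24, adjusted p = 0.972), while the 2 wild-type groups did not, with E2 higher (0.59 ± 0.24, adjusted p = 0.53), as held for 0.968% of all genes. The difference between these effects was -0.71 ± 0.34 (adjusted p = 0.679). A second kept probe of Zbp1 gave an E2 difference of 0.15 ± 0.32 in null livers, of the opposite sign, 0.34 ± 0.32 in wild-type livers, and -0.18 ± 0.45 between these effects. Dhx58, which encodes the regulator LGP2, averaged 0.37 ± 0.12 and 0.20 ± 0.29 in null livers under E2 and placebo, against 0.10 ± 0.16 and -0.12 ± 0.31 in wild-type livers. Ddx58, which encodes RIG-I, differed by 0.17 ± 0.08 averaged over treatments (adjusted p = 0.346).

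**Figure D5:**
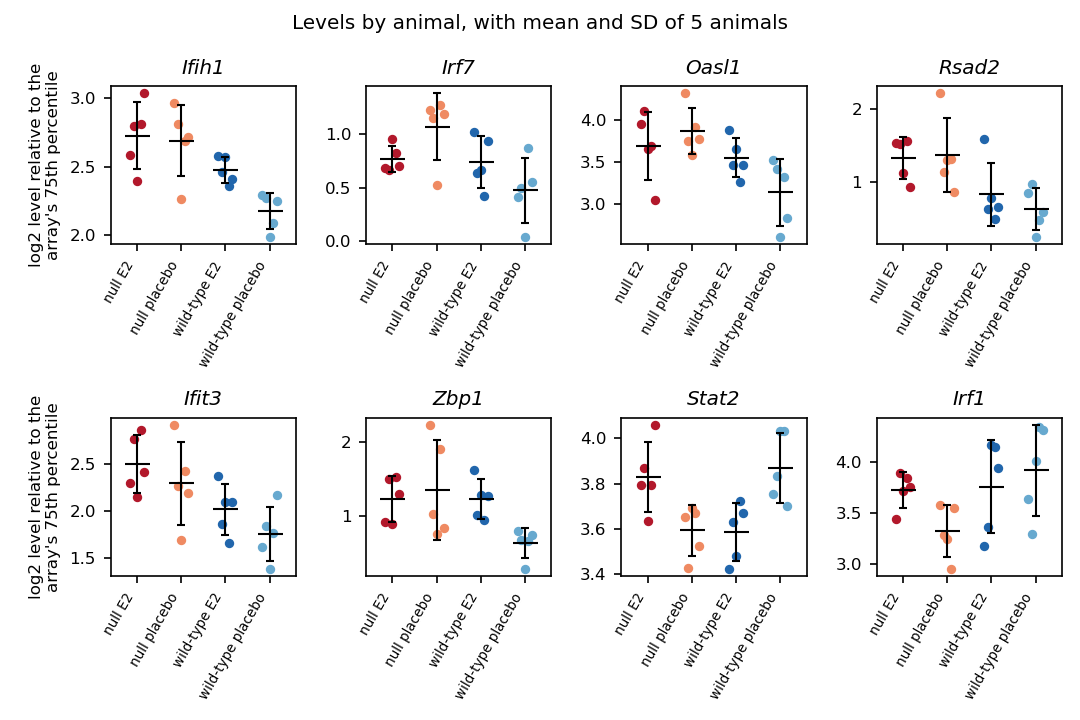
Log2 levels of 8 genes in each of the 20 animals (points), with the mean and SD of each group of 5. In Ifih1, Irf7, Oasl1, Rsad2, Ifit3 and Zbp1 both null groups average above both wild-type groups, in Irf7 and Zbp1 only narrowly under E2. Stat2 is low in null placebo and wild-type E2 livers.

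The oligoadenylate synthetases make the messenger that activates RNase L. Oasl1, a member of the family that lacks the enzyme activity, had 3.96, 4.11, 3.66, 3.69 and 3.05 in null E2 livers and 4.32, 3.75, 3.59, 3.91 and 3.77 in null placebo livers. It had 3.88, 3.47, 3.65, 3.26 and 3.47 in wild-type E2 livers and 3.52, 3.41, 2.60, 3.32 and 2.83 in wild-type placebo livers. Under placebo all 5 null animals lay above all 5 wild-type animals, as held for 1.2% of all genes in that direction; under E2 the genotypes overlapped. Null minus wild type was 0.73 ± 0.20 under placebo (fold 1.66, adjusted p = 0.226) and 0.15 ± 0.20 under E2 (adjusted p = 0.851). Oas2 averaged 1.69 ± 0.36 and 1.44 ± 0.21 in null livers under E2 and placebo, against 1.54 ± 0.33 and 1.58 ± 0.31 in wild-type livers, with no common order. The averaged genotype difference was 0.19 ± 0.12 for Oas1a, whose probe also lists Oas1g, and 0.18 ± 0.13 for Oasl2.

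The antiviral effectors held the largest group, 10 genes, and 9 of them stood higher in null livers on average. Rsad2, which encodes viperin, an enzyme that makes a chain-terminating nucleotide, stood at 1.53, 1.52, 1.13, 1.57 and 0.93 in null E2 livers and 2.22, 1.14, 1.30, 1.32 and 0.86 in null placebo livers. In wild-type livers it stood at 1.59, 0.63, 0.78, 0.49 and 0.66 under E2 and 0.85, 0.98, 0.24, 0.49 and 0.60 under placebo. Null placebo animal 1 and wild-type E2 animal 1 were the highest of their groups, and the genotypes overlapped under both treatments. Averaged over treatments the difference was 0.62 ± 0.17 (fold 1.54, adjusted p = 0.0878), and it passed without wild-type E2 animal 1 (adjusted p = 0.0351). For this average the adjusted p of Rsad2 ran from 0.0351 to 0.243 over 35 other fits. Cmpk2, the gene next to it on chromosome 12 that encodes a mitochondrial nucleotide kinase, did not overlap between genotypes under placebo, where its difference was 0.64 ± 0.28 (adjusted p = 0.44), as held for 1.2% of all genes with the null animals higher; it is named for that after its values were seen.

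Ifit1 and Ifit3 belong to a family of antiviral proteins, of which IFIT1 binds viral RNA. Ifit1 had 0.87, 1.34, 0.65, 1.11 and 0.19 in null E2 livers and 1.60, 0.39, 0.26, 0.98 and 0.40 in null placebo livers. It had 0.80, -0.03, 0.35, -0.10 and 0.28 in wild-type E2 livers and 0.31, 0.26, -0.30, 0.24 and 0.31 in wild-type placebo livers. Ifit1 differed between genotypes by nearly the same amount under E2 (0.57 ± 0.25) and under placebo (0.56 ± 0.25), though the animals overlapped in both. Ifit3 stood at 2.30, 2.76, 2.14, 2.86 and 2.41 in null E2 livers and 2.91, 2.26, 1.70, 2.42 and 2.18 in null placebo livers. Wild-type livers had 2.37, 1.86, 2.10, 1.67 and 2.09 under E2 and 1.62, 1.85, 1.39, 1.77 and 2.17 under placebo. For Ifit3 the group means fell in the order null E2, null placebo, wild-type E2 and wild-type placebo (2.49, 2.29, 2.02 and 1.76), and each neighbour in that order overlapped the next. The averaged difference was 0.51 ± 0.14 (fold 1.42, adjusted p = 0.103) for Ifit3 and 0.57 ± 0.18 (fold 1.48, adjusted p = 0.15) for Ifit1. Without null placebo animal 3, Ifit3 passed (adjusted p = 0.0445), and over 35 other fits of the average its adjusted p reached 0.242. Ifit2, of the same family, differed by 0.29 ± 0.19 (adjusted p = 0.605).

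Ifi44, a GTP-binding protein of uncertain role, had 0.29, 0.40, 0.37, 0.82 and 0.70 in null E2 livers and 0.28, 0.80, 0.39, 0.35 and 0.31 in null placebo livers. It had 0.43, 0.16, -0.18, -0.28 and 0.36 in wild-type E2 livers and -0.23, -0.10, -0.69, 0.01 and 0.61 in wild-type placebo livers. Every null animal lay above 0.28, while 5 of the 10 wild-type animals lay below 0, yet wild-type placebo animal 5 lay above 7 of the 10 null animals. The averaged difference was 0.46 ± 0.14 (adjusted p = 0.127), and it passed without wild-type placebo animal 5 (adjusted p = 0.0327). Its adjusted p reached 0.344 over 35 other fits. Mx2, a dynamin-like GTPase, had 1.77, 1.86, 1.27, 1.75 and 1.61 in null E2 livers, against 1.77, 1.16, 1.26, 1.30 and 1.20 in wild-type E2 livers. Its difference under E2 was 0.31 ± 0.14 (adjusted p = 0.506), and under placebo it was -0.08 ± 0.14. Bst2, which encodes tetherin, was the exception of the group: it averaged 6.11 ± 0.22 and 6.12 ± 0.14 in null livers under E2 and placebo, against 6.12 ± 0.18 and 6.18 ± 0.08 in wild-type livers. Mx1 and Ifi35 differed by 0.35 ± 0.17 and 0.10 ± 0.06 averaged over treatments.

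Isg15, the ubiquitin-like modifier, averaged 4.20 ± 0.34 and 4.10 ± 0.29 in null livers under E2 and placebo, against 3.93 ± 0.34 and 3.64 ± 0.24 in wild-type livers, a difference averaged over treatments of 0.37 ± 0.13 (adjusted p = 0.214). Usp18, which removes ISG15 and dampens the type I receptor, had the largest averaged difference of the 38 genes (0.69 ± 0.24) with one of the widest spreads. Its null placebo values were 4.35, 2.82, 2.85, 3.37 and 2.28, against 2.80, 2.42, 1.35, 1.71 and 2.46 in wild-type placebo livers, so the genotypes overlapped (adjusted p for the average = 0.203). Herc6, the mouse ligase that attaches ISG15, stood at -2.19, -0.07, -2.10, -1.87 and -1.99 in null E2 livers and -1.55, -1.86, -0.44, -2.05 and -1.98 in wild-type E2 livers. 1 animal of each E2 group stood far above the rest, and its averaged difference was 0.06 ± 0.25. Under E2 its second kept probe stood 0.18 ± 0.19 apart between genotypes, against -0.07 ± 0.36 at the probe used. Under placebo the 2 probes gave 0.37 ± 0.19 and 0.18 ± 0.36 in that order. The second probe's averaged difference was 0.27 ± 0.13. Usp18 and Herc6 are named after their values were seen.

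Parp9, an ADP-ribosylation protein of the interferon response, averaged 3.41 ± 0.07 and 3.42 ± 0.39 in null livers under E2 and placebo, against 3.30 ± 0.06 and 3.27 ± 0.12 in wild-type livers. A second kept probe of Parp9 gave -0.10 ± 0.18 averaged over treatments, against 0.13 ± 0.09 at the probe used. Its partner Parp14 differed by 0.14 ± 0.07 averaged over treatments. Xaf1, a pro-apoptotic factor, had 1.02, 1.57, 1.17, 1.56 and 1.20 in null E2 livers and 1.70, 1.44, 0.84, 1.44 and 1.20 in null placebo livers. Its wild-type values were 1.30, 1.01, 0.96, 0.76 and 1.11 under E2 and 0.86, 0.83, 0.28, 1.00 and 1.09 under placebo. Null animals other than placebo animal 3 stood at or above most wild-type animals, and the groups overlapped (averaged difference 0.39 ± 0.12, adjusted p = 0.13). Rtp4, a chaperone of membrane receptors, averaged 3.87 ± 0.27 and 3.91 ± 0.35 in null livers under E2 and placebo, against 3.64 ± 0.21 and 3.54 ± 0.37 in wild-type livers.

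The interferon-inducible GTPases, which attack the vacuoles of intracellular pathogens, answer mainly to interferon gamma. Gbp3 stood at 1.89, 2.22, 1.67, 2.37 and 2.25 in null E2 livers and 2.13, 2.06, 1.37, 2.37 and 1.59 in null placebo livers. It stood at 2.11, 1.54, 1.93, 1.34 and 2.02 in wild-type E2 livers and 1.25, 1.11, 0.88, 1.30 and 1.91 in wild-type placebo livers. The wild-type placebo animals were low except animal 5. The E2 difference was 0.18 ± 0.22 in null livers (adjusted p = 0.95) and 0.50 ± 0.22 in wild-type livers (adjusted p = 0.554). Gbp2 had an E2 difference of -0.09 ± 0.31 in null and 0.58 ± 0.31 in wild-type livers (adjusted p = 0.645 in wild type). Igtp averaged 4.88 ± 0.20 and 4.99 ± 0.49 in null livers under E2 and placebo, against 4.65 ± 0.29 and 4.62 ± 0.18 in wild-type livers. The averaged difference was 0.22 ± 0.19 for Ifi47 and 0.07 ± 0.16 for Iigp1.

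Psmb8, a subunit of the immunoproteasome, ranged from 2.97 to 3.34 in null E2 and 2.88 to 3.80 in null placebo livers, against 2.88 to 3.53 in wild-type E2 and 2.83 to 3.23 in wild-type placebo livers. Psmb9, another such subunit, differed by 0.43 ± 0.16 averaged over treatments (adjusted p = 0.224), and Tap1, the peptide transporter, by 0.24 ± 0.13 (adjusted p = 0.503). Cxcl10, the chemokine that draws T cells through CXCR3, averaged 1.45 ± 0.34 and 1.35 ± 0.69 in null livers under E2 and placebo, against 0.91 ± 0.38 and 1.09 ± 0.60 in wild-type livers. Its SDs in the placebo groups exceeded the averaged difference of 0.40 ± 0.22 (adjusted p = 0.477), and those in the E2 groups lay somewhat below it.

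Of 110 other genes of the pathway, 99 were measured, and 0 of them passed in any of the 6 comparisons. Of all genes, 0.00455% to 0.696% passed in these comparisons, so few calls could be awaited among 99. Averaged over treatments, 66 of 99 were higher in null livers, against 51.3% of all genes, with a median of 0.05, against 0.00 over all genes. The 25 measured genes of interferon gamma response and antigen presentation had 22 above 0 and a median of 0.12, and the 35 other interferon-stimulated genes had 24 above 0 and a median of 0.11. The receptors and kinases (11 genes, 5 above 0, median -0.01), the sensing and relay genes (16 genes, 11 above 0, median 0.02), the negative regulators (9 genes, 3 above 0, median -0.02) and the ligands (3 genes, 1 above 0, median -0.02) lay around 0. Ifnb1, Ifna4, Ifng, Ifne and Ifnl2, ligands of the pathway, were not kept by the filter. The smallest p-values of these lists belonged to Socs3 and Samd9l. Socs3, a feedback inhibitor of cytokine signalling, averaged 2.67 ± 0.14 and 2.48 ± 0.75 in null livers under E2 and placebo, against 3.19 ± 0.27 and 3.41 ± 0.33 in wild-type livers. That is a log2 difference of -0.72 ± 0.18 averaged over treatments (adjusted p = 0.0740). Samd9l, a restriction factor of poxviruses, differed by 0.40 ± 0.10 the other way (adjusted p = 0.0749).

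The lists of marker genes for the cells that liver can hold were set beside these values, and the levels below are log2 sums over a list, relative to the same percentile. The 12 Kupffer cell markers summed to log2 levels from 6.27 to 7.19 in null E2, 5.99 to 6.91 in null placebo, 6.04 to 7.52 in wild-type E2 and 5.88 to 6.77 in wild-type placebo livers. Their median difference between null and wild-type livers averaged over treatments was -0.06, with 2 of 12 above 0, and their E2 difference was 0.18 in null livers, with 11 of 12 above 0, and 0.27 in wild-type livers, with 12 of 12 above 0. The 9 measured T and natural killer cell markers, without Cd8a, Klrb1c and Trac, which were not kept, summed to 4.42 to 5.17 in null E2, 4.57 to 5.21 in null placebo, 4.65 to 5.21 in wild-type E2 and 4.82 to 5.46 in wild-type placebo livers. Their averaged genotype median was -0.01, with 3 of 9 above 0. The 6 plasmacytoid dendritic cell markers had an averaged median of -0.01, with 3 of 6 above 0, and ranges of 7.83 to 8.29, 7.78 to 8.13, 7.70 to 8.10 and 7.84 to 8.08 in the same order of groups. Their E2 differences ran from -0.23 to 1.20 in wild-type livers (2 of 6 above 0, smallest adjusted p = 0.0877). In null livers they ran from -0.18 to 0.49 (4 of 6 above 0). A sum follows the brightest genes of its list, and whether other cells also express them was not tested. So the Kupffer cell list lay at or below 0 between genotypes, where the interferon genes lay above it, and above 0 with them for E2 in wild-type livers. For E2 in null livers it lay above 0 while the interferon genes had a median of 0.03, with 20 of 38 above 0. Its part in the result was not tested.

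Of the other lists, the erythroid markers were higher in null than in wild-type livers for 4 of 4 measured genes (median 0.21 averaged over treatments), and Alas2, an enzyme of heme synthesis in red cell precursors, passed (adjusted p = 0.00172). Under placebo 4 of 4 were above 0 between genotypes (median 0.51, Alas2 adjusted p = 0.00249), and under E2 1 of 4 was (median -0.10). The E2 difference was above 0 for 1 of 4 in null livers (median -0.11) and for 4 of 4 in wild-type livers (median 0.51). The interferon genes' medians in these 4 comparisons were 0.32, 0.21, 0.03 and 0.13. Their sums ranged from 7.32 to 7.83 in null E2, 7.21 to 7.78 in null placebo, 7.41 to 8.04 in wild-type E2 and 6.86 to 7.34 in wild-type placebo livers. Hepatocyte (7 of 8 above 0, median 0.05), B and plasma cell (3 of 5, median 0.28), neutrophil (2 of 6, median -0.02), stellate cell (3 of 6, median -0.08) and endothelial markers (0 of 7, median -0.13) had no other gene that passed. Whether blood or any of these cells had a part in the interferon genes' values was not tested.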

How the data were processed

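Total liver RNA labelled with Cy3 was hybridised to 1-colour Agilent arrays, 1 per animal, per the labels' protocols. The authors' scanner files give, per the file headers, a processed intensity for each spot, background-subtracted by Agilent Feature Extraction 10.10.1.1, with probes placed on mm9. The authors also deposited log2 values for 32526 probes, which followed the log2 median signal (correlation 0.9987 to 1.0), each column with a median of 7.85; limma appears in the submitters' processing notes, without a version. Those values served as an alternative.

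The log2 processed intensity minus the 75th percentile of each array's 59305 non-control spots was used. Outlier-flagged spots were dropped, spots of a probe averaged, and probes kept where at least 4 of a group's 5 arrays called them well above background (30961 of 55681). The brightest probe gave 21998 genes. 9 genes of the set had several kept probes, and these had 1 sign at all probes for 7 to 9 genes in the 6 comparisons.

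One limma 3.58.1 fit (R 4.3.3) of 4 group means with empirical Bayes gave all differences, with p-values adjusted by Benjamini-Hochberg per comparison over the 21998 genes, and was tested on simulated data. Animals were separate, so p-values measure the spread between animals. The text names the 6 genes with the smallest p in each comparison and the brightest of each role. The members and lists were chosen with earlier results of these data known. Replicate numbers were not treated as pairs. Deviations of animals with the same number correlated between -0.16 and 0.24, which cannot exclude pairing, since animals with different numbers were not compared. 16 alternative settings, 2 of them chosen after seeing the data, and 20 fits leaving out 1 animal were run. Arrays, not counts, limit the precision.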

Additional observations from a re-analysis of the deposited data

Results flagged for a closer look

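Single animals stood apart from the other 4 of their group by Dixon's criterion in 9 of 156 groups tested, where chance gives about 1 in 20. Irf7 was low in null placebo animal 3 (0.522, others 1.15 to 1.28). Ifi44 was high in null placebo animal 2 (0.805, others 0.28 to 0.39), and Ifi35 in null placebo animal 1 (3.21, others 2.80 to 2.89). Herc6 was high in null E2 animal 2 (-0.0741, others -2.18 to -1.87). In wild-type E2 livers, Mx2 (1.772, others 1.16 to 1.30) and Rsad2 (1.592, others 0.49 to 0.78) were high in animal 1, and Parp14 (3.429, others 3.15 to 3.17) in animal 5. In wild-type placebo livers, Zbp1 (0.294, others 0.67 to 0.80) and Ifit1 (-0.302, others 0.24 to 0.31) were low in animal 3. No gene of the set moved in opposite directions under E2 in the 2 genotypes without overlap. The causes were not tested.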

How the results depend on the processing

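In all alternatives run, 0 genes passed for E2 in either genotype, for the genotypes' difference in E2 effect, and between genotypes under E2. For null against wild type averaged over treatments it was 1 with probes required on every array of a group (Ifih1, adjusted p = 0.0466), 1 with a trended and robust prior (Ifih1, 0.0300), 2 with the replicate block (Ifih1, 0.0430, and Rsad2, 0.0358) and 1 without slide 2 (Ifih1, 0.0275). Leaving out 1 animal gave 0 to 2: Ifih1 (0.0235) without null E2 animal 3, Ifih1 (0.0115) and Ifit3 (0.0445) without null placebo animal 3, Rsad2 (0.0351) without wild-type E2 animal 1, and Ifi44 (0.0327) and Ifih1 (0.0486) without wild-type placebo animal 5. Under placebo the number was 1 without slide 2 (Irf7, 0.0473) and 0 to 2 on leaving out 1 animal. The 2 were Ifih1 (0.0345) and Irf7 (0.0390) without null placebo animal 3. In the other fits of the averaged and placebo comparisons no gene of the set passed. Leaving out slide 2, or null placebo animal 1 and wild-type placebo animal 3 together, was chosen after seeing the data. The replicate numbers were not treated as pairs in the main fit, and the block changed no other call.

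The median of the set for E2 in wild-type livers was -0.094 when arrays were scaled on their median, which moved the median of all genes to -0.22, so that the set lay 0.13 above it. Over the alternatives other than leaving out 1 animal, the median ranged from 0.17 to 0.43 for null against wild type averaged over treatments, 0.13 to 0.50 under placebo, 0.18 to 0.33 under E2, -0.07 to 0.15 for E2 in null livers and -0.16 to 0.04 for the difference in E2 effects. Leaving out 1 animal gave 0.23 to 0.34, 0.22 to 0.44, 0.16 to 0.27, -0.03 to 0.15 and -0.20 to -0.03 for the same comparisons in that order, and 0.09 to 0.19 for E2 in wild-type livers. A fit on only the groups compared was not run for the averaged comparison and the difference in E2 effects, which need all 4. The causes were not tested.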
